A study of Mus musculus with 14 samples.

Results

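Postnatal day 20 (P20) was compared with postnatal day 18 (P18) in mouse hair follicle stem cells of the libraries labelled wild type (WT). The comparison takes 7 of the 14 bulk RNA sequencing libraries of the series, chosen by their titles: 3 labelled P18 WT and 4 labelled P20 WT. The other 7 were labelled Irx5KO, for knockout of the homeobox gene Irx5, and were used only where stated. Back skin was digested with trypsin, and living cells that stained for CD34 and for a marker the labels spell CD45f, but not for Ly-6A/E, were sorted. All groups share this gate and an RNA integrity number above the submitters' minimum. The labels do not give strain, sex, the number of mice behind a library or the allele of the knockout. They do not say either that replicates are separate animals, so the p-values reflect library-to-library spread. How much of that spread lies between animals is not known.

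Hair follicles pass through rest, growth and regression. In the resting follicle the stem cells sit in the bulge, held in quiescence by BMP signals and by FGF18, and adjoin the smaller hair germ. Growth starts when signals from the dermal papilla and, within the epithelium, Wnt and Hedgehog signals reach the hair germ and then the bulge. Mouse back skin is close to its first such transition at these ages.

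The libraries labelled WT held between 16922104 and 46604801 estimated counts. Each age was split over 2 dates, read from a code deposited with the data that has the form of a date, and which step it marks is not stated. The ages share no date, so age and date cannot be told apart. P18 WT 1 and 2 carried the earlier P18 date and P18 WT 3 the later one, and P20 WT 3 and 4 the earlier P20 date and P20 WT 1 and 2 the later one. Irx5 itself, in CPM (counts scaled to a common library total), stood at 96.3, 102 and 132 CPM at P18 and 115, 102, 37.3 and 41.9 CPM at P20. It was thus low in P20 WT 3 and 4, on the earlier P20 date, and high in P20 Irx5KO 3 and 4. In the scaling of all 14 libraries it stood at 49.5, 72.6 and 75.4 CPM in Irx5KO at P18 and at 31.2, 18.8, 187 and 177 CPM at P20, the last 2 the highest of all 14. Whether the labels of these 4 P20 libraries were exchanged was not tested, so a name such as P20 WT 3 gives a library's label and not a tested genotype. The deposited data of P18 WT 3 also carry the word het, which no label explains. Olfactory and vomeronasal receptor genes, families named for the sensory cells of the nose, took 1.80%, 5.45% and 0.554% of the counts at P18 and 0.340%, 2.41%, 0.102% and 0.108% at P20. P18 WT 1 and 2 and P20 WT 2, which held the most, are called the 3 receptor-rich libraries. Without them P18 WT 3 is the only P18 library, so such a value compares 1 library with 3 and has no replicate at P18. The Y-linked gene Ddx3y was at 0.589, 0.544 and 96.0 CPM at P18 and 0.123, 58.6, 74.6 and 65.8 CPM at P20 at raw library sizes, so both ages hold libraries with and without it. The bulge keratin Krt15 was at 4956, 5469 and 12143 CPM at P18 and 6912, 11008, 13603 and 19223 CPM at P20, and Cd34, the sorted surface protein, at 270.4, 385 and 647 CPM at P18 and 290.1, 265, 608 and 1026 CPM at P20. Ly6a, which encodes the antigen sorted against, did not exceed 2.54 CPM in any of the 7 libraries.

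Of 12590 genes tested with edgeR's quasi-likelihood test, none passed a Benjamini-Hochberg adjusted p under 0.05 (0%). The smallest adjusted p was 0.103, shared by 38 genes, and 2444 genes (19.4%) had an unadjusted p under 0.05. Of these, 1788 (14.2%) were higher and 656 (5.21%) lower at P20. The levels of the 2 ages did not overlap for 1761 genes that were higher in every P20 library (14% of genes tested) and 686 that were lower in every one (5.45%). Under the RLE scaling of library sizes the same counts were 1353 and 895, so the share of higher genes was 60.2% in place of 72.0%. The median log2 difference over all genes was 0.0741 with the first scaling and -0.00438 with the second.

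Other tests of the same 7 libraries did call genes. Of the same 12590 genes, DESeq2 called 413 higher and 230 lower at P20, and limma voom with sample quality weights called 1655 and 571. With the replicate number as a block, which pairs libraries of the same number across ages, edgeR called 575 higher and 562 lower. P20 WT 4 has no partner at P18 and then adds nothing to the age difference. No label states this pairing. It was taken from correlations in these same data, so the block's calls are not independent support. With date as a random effect in limma voom, none was called, and the smallest adjusted p was 0.342. In what follows a member is therefore described by its levels, by whether the ages overlap, and by which of these tests called it. Counts of members that a test called are to be read beside that test's counts over all 12590 genes. The levels cannot tell fewer cells of a type from less RNA per cell.

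The most uniform difference lay in the genes of the mitochondrial genome, which encode core subunits of the respiratory chain and of ATP synthase. Of 13 such protein-coding genes 12 were tested, and 10 were lower in every P20 library than in every P18 library, against 5.45% of all genes. All 12 had a log2 difference (P20 minus P18) below 0, whereas 53.8% of all genes had one above 0, with a median of -1.65. Together the protein-coding genes of the mitochondrial genome took 1.80% ± 0.161 (SD, n = 3) of the counts at P18. At P20 they took 0.506% ± 0.0395 (SD, n = 4), a 3.55-fold difference. The two-sided exact permutation test gave p = 0.0571, the smallest that 3 against 4 libraries allow. The number of genes with any count also differed, at 25724 to 31692 in the P18 libraries and 18410 to 29281 in the P20 libraries, and its part in the result was not tested.

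Complex I subunits were lower together. For mt-Nd6, the one subunit gene on the light strand, the levels were 612, 455 and 552 CPM at P18 and 161, 174, 124 and 115 CPM at P20, a log2 difference of -1.91 ± 0.25 (SE). The subunit gene mt-Nd5 was at 2087, 1709.9 and 1849.6 CPM at P18 and 589.6, 657, 562 and 531 CPM at P20, a difference of -1.69 ± 0.23. Every P18 library lay above every P20 library for both genes. The other complex I genes differed by -1.63 (mt-Nd2), -1.71 (mt-Nd1), -1.53 (mt-Nd4) and -1.36 (mt-Nd4l), again with no overlap.

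Complexes III, IV and V looked alike for most members. The cytochrome b gene mt-Cytb was at 2883, 2407 and 2282 CPM at P18 and 774, 867, 758 and 764 CPM at P20, a difference of -1.67 ± 0.24, and the ATP synthase gene mt-Atp8 at 514, 368 and 359 CPM at P18 and 113, 131, 127 and 126 CPM at P20, a difference of -1.73 ± 0.22. The catalytic subunit gene of cytochrome c oxidase, mt-Co1, was at 5439.6, 4562 and 4813 CPM at P18 and 1319, 1549, 1850.5 and 1939.5 CPM at P20, a difference of -1.57 ± 0.27. The ages did not overlap for these 3 genes, nor for mt-Co3 with 721, 660.2 and 779 CPM at P18 and 199, 49.7, 342 and 198 CPM at P20. The exceptions were mt-Atp6, with 322, 352 and 1105 CPM at P18 and 71.7, 172, 443 and 267 CPM at P20, and mt-Co2, with 245, 109.7 and 712 CPM at P18 and 245, 179, 134 and 239 CPM at P20. These last 3 genes also spread most within an age, and near-identical copies of mitochondrial genes lie in the nuclear genome, so their counts are uncertain. The named genes with the smallest p had an adjusted p of 0.103 in edgeR. DESeq2, voom and the replicate block each called 10 of the 12 mitochondrial genome members lower. The median of the list was -1.76 with the later P20 date alone, -1.60 with the earlier P20 date alone and -1.66 without the 3 receptor-rich libraries, with P18 WT 3 alone at P18. Between the P20 dates its median difference was 0.00855.

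**Figure D1:**
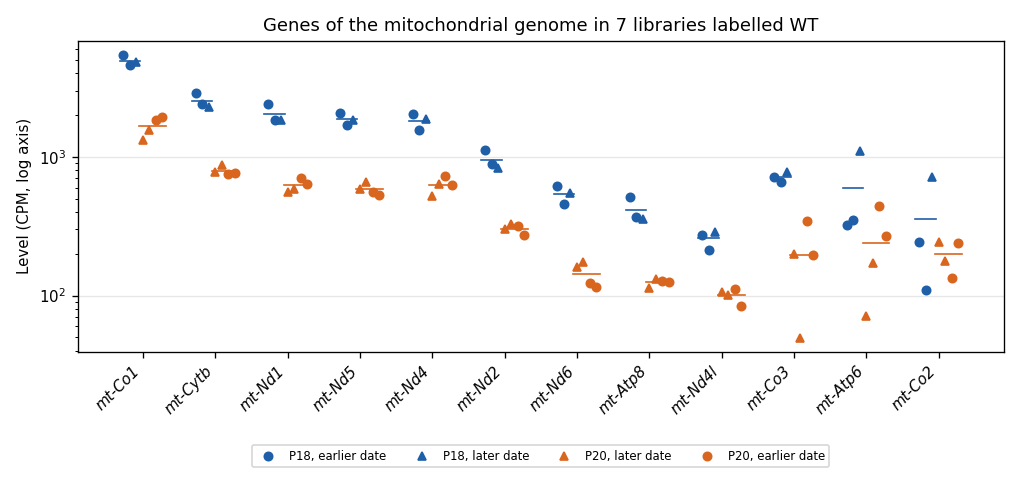
Level in CPM (log axis) of the 12 mitochondrial genome genes tested, with 1 point per library labelled WT, coloured by age and shaped by date, and a line at each group's mean. For 10 genes all 4 P20 points lie below all 3 P18 points, and for mt-Atp6 and mt-Co2 they overlap.

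Nuclear genes for the same respiratory complexes did not share this direction. Of 29 tested, 13 were higher in every P20 library (14% of all genes were) and none was lower, and 26 had a difference above 0, with a median of 0.59. Atp5b, the catalytic beta subunit of ATP synthase, was at 148, 119 and 219 CPM at P18 and 391, 343, 282 and 317 CPM at P20, a log2 difference of 1.04 ± 0.28. The complex III subunit gene Uqcrq was at 25.1, 18.9 and 31.8 CPM at P18 and 58.7, 52.9, 41.2 and 40.7 CPM at P20. The ages did not overlap for either gene, nor for Ndufb10 (0.86) or Uqcrfs1 (0.93). Voom called 14 of the 29 higher, DESeq2 and the block 1 each. Their median was 0.22 without the 3 receptor-rich libraries and 0.19 with the later P18 date alone, both with P18 WT 3 as the only P18 library.

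Among nuclear genes, Creb5 and Ctrc had the smallest p of those lower at P20. Creb5, a transcription factor of the CREB and ATF family, was at 3451, 2910.1 and 3629.9 CPM at P18 and 446, 484, 814 and 603 CPM at P20. Its log2 difference was -2.51 ± 0.31, and the highest P20 library held less than any P18 library. Ctrc, which encodes the protease chymotrypsin C, was at 49.4, 32.5 and 45 CPM at P18 and 8.14, 5.62, 10.2 and 5.88 CPM at P20, a difference of -2.50 ± 0.29. The other 6 of the 8 smallest p in this direction were mitochondrial genome genes.

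Of the 8 genes higher at P20 with the smallest p, among those above the expression minimum and without overlap, 7 are reported here, and they act in several parts of the cell. Eloa, a subunit of the transcription elongation factor elongin, was at 72.4, 60.3 and 64 CPM at P18 and 189, 173, 188 and 157 CPM at P20, a difference of 1.43 ± 0.19. Polr1c, a subunit shared by RNA polymerases I and III, was at 8.58, 8.06 and 10.5 CPM at P18 and 34, 37.9, 25.8 and 27 CPM at P20, a difference of 1.79 ± 0.24. The autophagy initiation gene Atg101 was at 7.72, 9.61 and 8.4 CPM at P18 and 26.7, 23.4, 26.2 and 29.6 CPM at P20, a difference of 1.63 ± 0.22. No P20 library came near the P18 range for these 3 genes.

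Mthfd1, an enzyme of one-carbon folate metabolism, was at 30.3, 33.1 and 44.1 CPM at P18 and 81.1, 91.2, 111 and 104 CPM at P20, a difference of 1.43 ± 0.22. The zinc finger gene Zbtb11 was at 50.4, 43.6 and 47.5 CPM at P18 and 156, 109, 106 and 119 CPM at P20. The channel gene Tmem63b was at 41.8, 37.7 and 42.1 CPM at P18 and 96, 83.7, 98.2 and 94.9 CPM at P20. Hmga1b was at 7.3, 5.62 and 3.81 CPM at P18 and 53.1, 22.2, 83.1 and 43.6 CPM at P20, a difference of 3.18 ± 0.49. It is a near-identical copy of Hmga1, and reads of the pair may be divided between them in an uncertain way.

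These 15 leading genes were chosen for a small p and no overlap in these same libraries, so further calls of them are not independent support. They had adjusted p of 0.103 in edgeR, and DESeq2, voom and the replicate block each called all 15. Taking the spread from all 14 libraries called 12 of them, not Tmem63b, Zbtb11 and Hmga1b. With P20 of the later date alone none was called, and the adjusted p lay between 0.198 and 0.279. With P20 of the earlier date alone Hmga1b was called, and the adjusted p lay between 0.0439 and 0.0744.

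**Figure D2:**
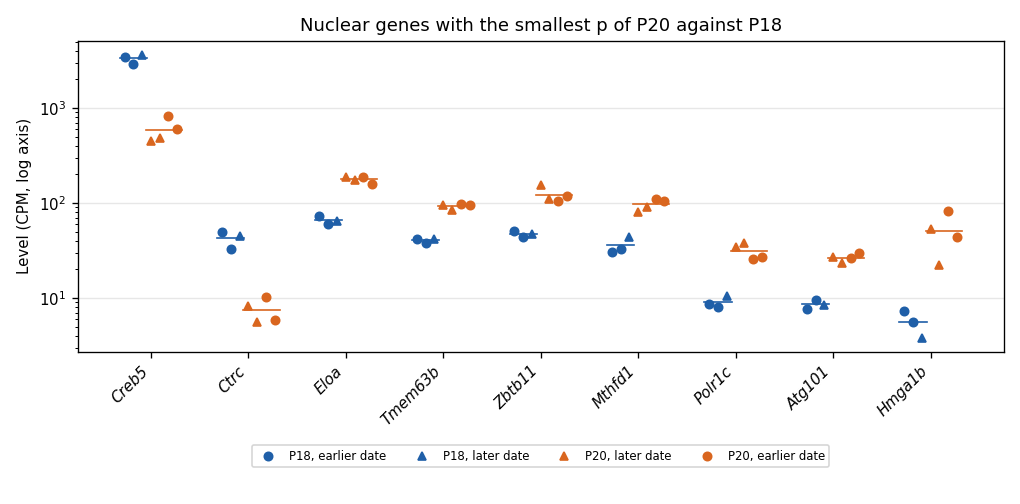
Level in CPM (log axis) of 9 nuclear genes with the smallest p of P20 against P18, with 1 point per library labelled WT and a line at each group's mean. Creb5 and Ctrc are lower in all 4 P20 libraries, and the other 7 genes are higher in all 4.

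Genes of protein synthesis, assembly and turnover were mostly higher at P20. Of 36 cytosolic ribosomal protein genes, 23 were higher in every P20 library (14% of all genes were) and none lower. For 35 the difference was above 0, and the median was 1.09. Rps15 of the small subunit was at 169, 141 and 232 CPM at P18 and 386, 348, 422 and 391 CPM at P20, a log2 difference of 1.10 ± 0.25. Rpl11 of the large subunit, which also binds the p53 regulator MDM2 when ribosome assembly is disturbed, was at 94.9, 97.7 and 155 CPM at P18 and 266, 271, 215 and 234 CPM at P20. Neither overlapped between ages, as was true of Rps7 (1.47), Rpl28 (1.42) and Rpl18 (0.98). Voom called 32 of the 36 higher, the block 12 and DESeq2 8. The median of cytosolic ribosomal proteins was 0.38 without the 3 receptor-rich libraries and 0.35 with the later P18 date alone, both with P18 WT 3 as the only P18 library. Ribosomal protein genes have many processed copies in the genome, so their counts are uncertain.

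Of 20 genes of Myc targets and ribosome biogenesis, 8 were higher in every P20 library (14% of all genes were), with a median of 0.76. Ncl, the nucleolar protein nucleolin, was at 699, 411 and 833 CPM at P18 and 2069, 2004, 1668 and 1297 CPM at P20, a difference of 1.44 ± 0.34. Nolc1, a nucleolar scaffold protein, was at 64.2, 48.4 and 53.2 CPM at P18 and 167, 151, 93.3 and 107 CPM at P20, a difference of 1.23 ± 0.27. Myc itself, which drives many of these genes, was at 263, 114 and 228 CPM at P18 and 715, 405, 857 and 536 CPM at P20, a difference of 1.64 ± 0.40, with no overlap. The members Mybbp1a (0.83), Nop16 (0.95) and Bop1 (0.80) did not overlap either. The median of the Myc list was 0.38 with the earlier P20 date alone.

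For the proteasome, which degrades tagged proteins, 13 of 25 genes were higher in every P20 library, where 14% of all genes were, and none lower (median 0.67). The ATPase subunit gene Psmc3 was at 53.5, 49.4 and 77.7 CPM at P18 and 122, 109.8, 109.5 and 119 CPM at P20, and the core particle gene Psmb4 at 21.2, 17.4 and 22.8 CPM at P18 and 48.2, 38.5, 33.9 and 36.7 CPM at P20. For the spliceosome 14 of 25 were higher in every P20 library and none lower (median 0.61). Its Sm protein gene Snrpb was at 35.2, 35.7 and 57.4 CPM at P18 and 139, 109.8, 84.3 and 82.3 CPM at P20, a difference of 1.28 ± 0.29. With P18 WT 3 as the only P18 library and without P20 WT 2, the medians were 0.23 for the proteasome and 0.34 for the spliceosome.

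**Figure D3:**
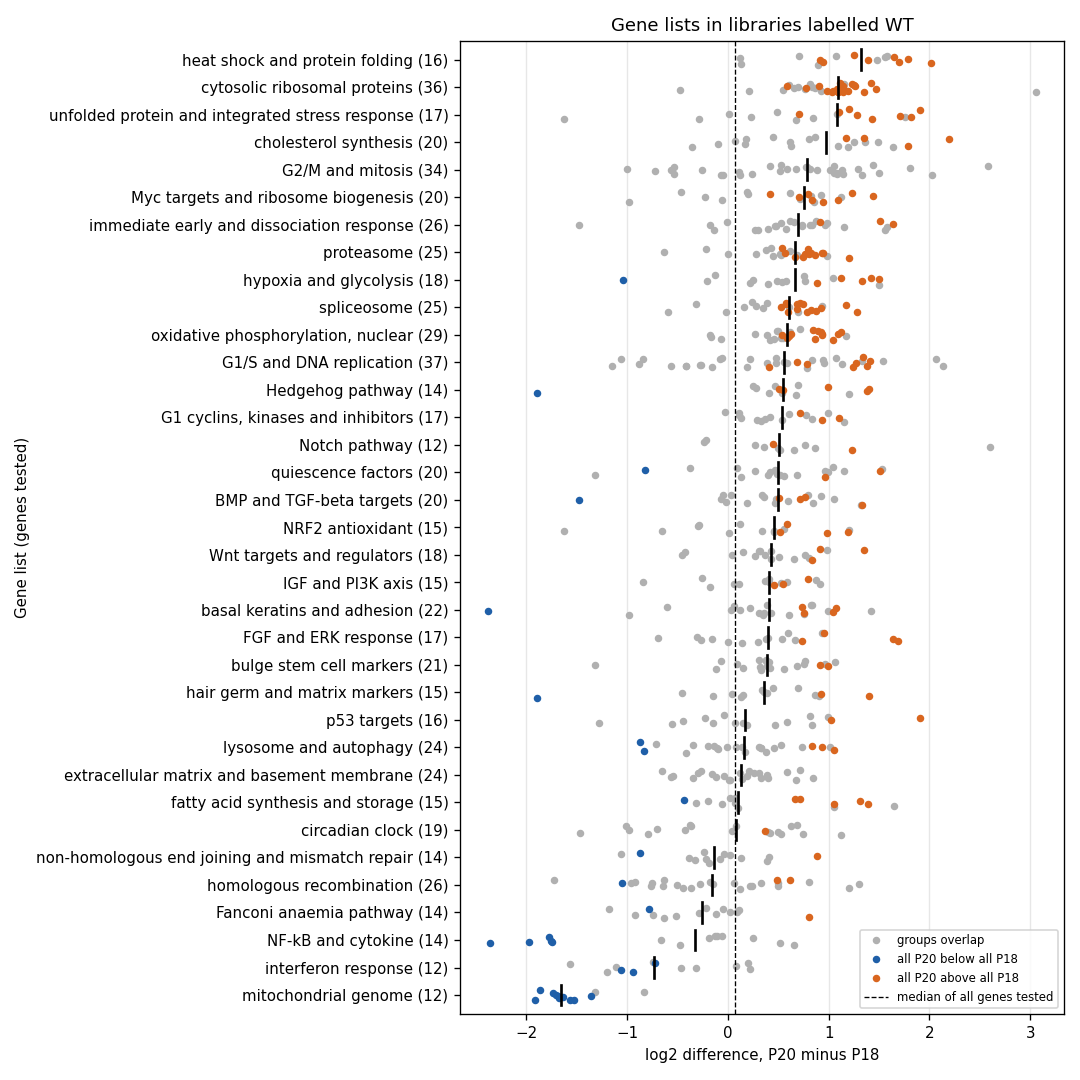
Log2 difference (P20 minus P18) of every tested member of 35 gene lists, with 1 point per gene, coloured by whether the ages overlap, a black bar at each list's median and a dashed line at the median of all genes (0.0741). The mitochondrial genome lies at the bottom with a median of -1.65, and heat shock and protein folding at the top with 1.32.

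Many genes of chaperones and of the response to unfolded proteins were higher at P20. Heat shock factors bind repeats of a short element before heat shock genes, and ATF6 with NF-Y binds the endoplasmic reticulum stress element before genes for chaperones of that compartment. The 250 bases before the RefSeq start (build GRCm38.p6) were searched on both strands for the heat shock element in the first list (GAA, TTC and GAA, each 2 bases from the next) and the endoplasmic reticulum stress element in the second (CCAAT and CCACG, 9 bases apart). The heat shock element was found for 2 of the 12 members with a promoter entry, Hspd1 and Hspe1, which share 1 region on opposite strands. The other members, Hspa8, Hsp90ab1, Hsp90aa1 and Cryab, were not searched. This element was in 0.466% of all 32841 promoters and for 0.514% of the genes that have one. The endoplasmic reticulum stress element was found for 3 of 17 members, Hspa5, Calr and Hsp90b1. It was in 0.113% of all promoters and for 0.13% of the genes that have one. Sequences of 4 promoters are given because they carry these matches. Capitals mark the fixed letters of each match, and Hsp90b1 holds 2 matches. In Hspd1, matches on the 2 strands overlap.
Hspa5, chr2:34771840-34772089, plus strand: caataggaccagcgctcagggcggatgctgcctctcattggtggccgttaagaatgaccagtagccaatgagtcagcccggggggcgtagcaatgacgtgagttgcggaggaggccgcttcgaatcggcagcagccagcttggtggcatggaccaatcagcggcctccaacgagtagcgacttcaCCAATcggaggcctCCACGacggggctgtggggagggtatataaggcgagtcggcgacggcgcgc
Calr, chr8:84846932-84847181, minus strand: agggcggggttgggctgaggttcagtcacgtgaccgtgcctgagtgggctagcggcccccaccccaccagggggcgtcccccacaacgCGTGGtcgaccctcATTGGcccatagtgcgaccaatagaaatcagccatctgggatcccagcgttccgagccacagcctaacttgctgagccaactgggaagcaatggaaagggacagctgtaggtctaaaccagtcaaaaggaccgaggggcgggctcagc
Hsp90b1, chr10:86705445-86705694, minus strand: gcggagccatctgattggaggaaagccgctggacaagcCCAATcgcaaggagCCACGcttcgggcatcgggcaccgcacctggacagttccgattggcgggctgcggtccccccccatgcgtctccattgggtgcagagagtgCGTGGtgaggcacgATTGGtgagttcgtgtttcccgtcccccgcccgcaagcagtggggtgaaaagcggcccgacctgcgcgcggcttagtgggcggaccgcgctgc
Hspd1, chr1:55087933-55088182, minus strand: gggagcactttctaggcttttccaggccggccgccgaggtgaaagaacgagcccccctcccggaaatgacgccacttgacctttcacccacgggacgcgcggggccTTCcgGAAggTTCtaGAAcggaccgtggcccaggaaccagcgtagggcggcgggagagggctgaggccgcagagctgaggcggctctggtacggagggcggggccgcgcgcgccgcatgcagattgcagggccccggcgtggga

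Of the 16 genes of heat shock and protein folding, all had a difference above 0, with a median of 1.32. In every P20 library 8 were higher (14% of all genes were). Hspa8, the constitutive cytosolic HSP70, was at 687, 400.4 and 784 CPM at P18 and 1773, 1741, 3311 and 3242 CPM at P20, a log2 difference of 2.01 ± 0.41. Hsp90ab1, the constitutive HSP90, was at 860.2, 679 and 1923 CPM at P18 and 4077, 3798, 3528 and 3094 CPM at P20, a difference of 1.65 ± 0.42. Their co-chaperone Bag3 was at 175, 87 and 157 CPM at P18 and 429, 336, 523 and 636 CPM at P20, a difference of 1.78 ± 0.35. P20 WT 3 and 4 were the highest for Hspa8 and Bag3, whereas P20 WT 1 and 2 were the highest for Hsp90ab1. Hsph1, a nucleotide exchange factor for HSP70, was at 76.3, 48.7 and 74.1 CPM at P18 and 97.7, 138, 187 and 272 CPM at P20, and the mitochondrial chaperonin gene Hspd1, shown above, at 53.2, 34.1 and 54.9 CPM at P18 and 78, 108, 76.7 and 101 CPM at P20. Its partner Hspe1 was at 5.15, 5.12 and 9.74 CPM at P18 and 11.1, 8.61, 12.2 and 17.7 CPM at P20, which overlapped between ages. Voom called 9 of the 16 higher, DESeq2 7 and the block 5. With the later P20 date alone the median of heat shock and protein folding was 0.58, and with the earlier date alone 1.43.

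Of 17 genes of the unfolded protein and integrated stress response, 8 were higher in every P20 library (14% of all genes were) and none lower. The median was 1.08. Hspa5, the chaperone BiP, was at 526, 284 and 541 CPM at P18 and 903, 815, 1109.5 and 1044 CPM at P20, a difference of 1.10 ± 0.31. Calr, the lectin chaperone calreticulin, was at 326, 217 and 462 CPM at P18 and 1099, 1142, 506 and 859 CPM at P20, a difference of 1.43 ± 0.40. Hsp90b1, the HSP90 of the endoplasmic reticulum, was at 283, 206 and 357 CPM at P18 and 774, 769, 404 and 638 CPM at P20, a difference of 1.20 ± 0.33. Each of the 3 genes with the element was thus higher in every P20 library, and P20 WT 3 was the lowest of these for Calr and Hsp90b1.

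Members without a match were also higher in every P20 library. Atf4, the transcription factor of the integrated stress response, was at 243, 122 and 210.5 CPM at P18 and 837, 550.0, 629 and 495 CPM at P20, a difference of 1.71 ± 0.34. Dnajb9, a co-chaperone of BiP, was at 57.7, 28.2 and 55.4 CPM at P18 and 148, 119.7, 223 and 173 CPM at P20, a difference of 1.81 ± 0.34. Sesn2, a stress-induced inhibitor of mTORC1 signalling, was at 21.4, 12.6 and 7.19 CPM at P18 and 80.7, 43.5, 41.4 and 39.5 CPM at P20, and Herpud1, a factor of the degradation of misfolded proteins, at 13.7, 12.4 and 13.4 CPM at P18 and 24.9, 24.1, 39 and 40.3 CPM at P20. Slc7a11, the cystine transporter, went the other way, with 37, 114 and 10.7 CPM at P18 and 10, 51.7, 5.46 and 2.5 CPM at P20. Voom called 9 members higher, DESeq2 7 and the block 5, and the block called Slc7a11 lower. The median of the list was 0.98 with the later P20 date alone and 0.45 with the earlier one.

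Early response genes can be induced while skin is dissociated. Of 26 genes of the immediate early and dissociation response, 3 were higher in every P20 library, below the 14% of all genes, and none was lower. The median of this list was 0.70. It was -0.07 with the later P20 date alone, 1.07 with the earlier one and 0.30 without P18 WT 2. Klf4, a member, was at 1515, 909 and 1677 CPM at P18 and 2346, 1817, 7046 and 4358 CPM at P20. The part of dissociation in the chaperone values was not tested.

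**Figure D4:**
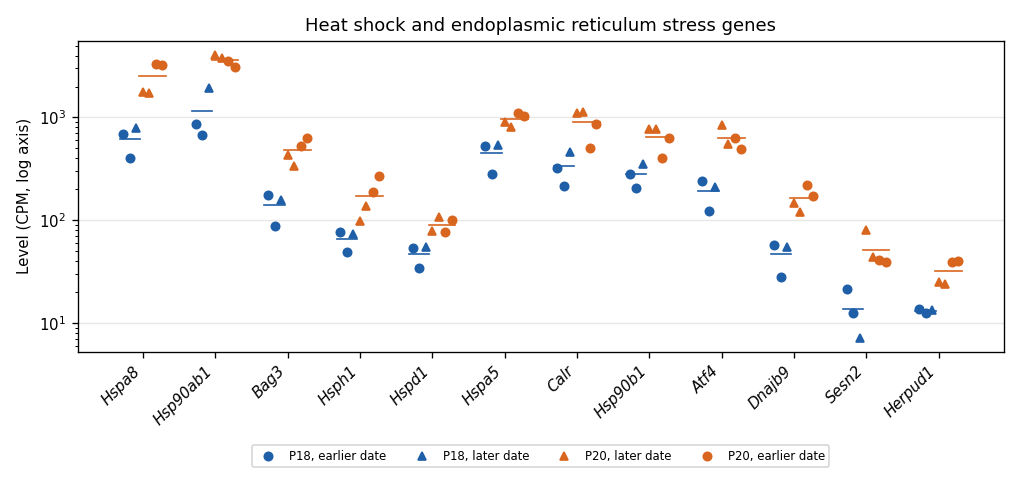
Level in CPM (log axis) of 5 heat shock genes and 7 genes of the unfolded protein and integrated stress response, with 1 point per library labelled WT and a line at each group's mean. In each of the 12 genes all 4 P20 libraries lie above all 3 P18 libraries.

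Lists of sugar and sterol metabolism had medians above that of all genes. In hypoxia and glycolysis 5 of 18 genes were higher and 1 was lower in every P20 library (14% and 5.45% of all genes were). The median was 0.67, or 0.35 without P18 WT 2. Hk2, a hexokinase that phosphorylates glucose, was at 196, 86.9 and 163 CPM at P18 and 499, 378, 349 and 451 CPM at P20, a log2 difference of 1.50 ± 0.33. Pfkl, a phosphofructokinase, was at 12.5, 19.9 and 18.8 CPM at P18 and 43.7, 60.2, 38 and 40.4 CPM at P20, a difference of 1.42 ± 0.27. The later enzymes Gapdh (1.12) and Pgk1 (1.33) and the isomerase Gpi1 (0.89) did not overlap between ages.

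In cholesterol synthesis 4 of 20 genes were higher in every P20 library, a share near the 14% of all genes, and none was lower, with a median of 0.98. Fdps, which makes farnesyl diphosphate, was at 11.1, 15.3 and 13.9 CPM at P18 and 95.5, 86.7, 33.9 and 29.2 CPM at P20, a difference of 2.19 ± 0.49. Cyp51, the lanosterol demethylase, was at 12.6, 11.3 and 13.4 CPM at P18 and 76.8, 59.1, 20.5 and 15.5 CPM at P20. P20 WT 1 and 2 stood well above P20 WT 3 and 4 in both genes. The same was seen for Hmgcs1, with 90.7, 54.1 and 102 CPM at P18 and 327, 222, 148 and 142 CPM at P20, and for Srebf2, the transcription factor of the pathway, with 132, 89.3 and 126 CPM at P18 and 414, 268, 159 and 204 CPM at P20. The median of cholesterol synthesis was 1.31 with the later P20 date alone, 0.12 with the earlier one and 0.55 without P20 WT 1.

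In the Hedgehog pathway 5 of 14 genes were higher and 1 was lower in every P20 library (14% and 5.45% of all genes were). For 13 the difference was above 0, and the median was 0.55, or 0.31 with the later P20 date alone. The ligand gene Shh was the lower one, at 6.3, 8.25 and 4.97 CPM at P18 and 2.39, 2.98, 0.449 and 1.15 CPM at P20, a log2 difference of -1.89 ± 0.77. The receptor gene Ptch1, itself a target of the pathway, was at 91.4, 71.6 and 94.6 CPM at P18 and 182, 281, 101 and 119 CPM at P20, a difference of 0.99 ± 0.38. Smo, the transducer, was at 85.5, 88.1 and 105 CPM at P18 and 104, 141, 142 and 153 CPM at P20, with a slight overlap. Gli2, the main activating transcription factor, was at 101, 69.9 and 97.2 CPM at P18 and 262, 279, 203 and 201 CPM at P20, a difference of 1.40 ± 0.24 with adjusted p = 0.108 in edgeR. Gli1, the target most used as a readout of the pathway, was at 54.7, 44.9 and 67.7 CPM at P18 and 187, 233, 69.1 and 89.9 CPM at P20, a difference of 1.38 ± 0.45. P20 WT 1 and 2 were far above the rest for Gli1 and Ptch1, and P20 WT 3 exceeded the highest P18 library of Gli1 by little. The ciliary kinesin gene Kif7 differed by 0.55. DESeq2, the block and the spread of 14 libraries each called Gli2 alone of the Hedgehog pathway, and voom called 4 genes, Gli2 among them. The GLI motif GACCACCCA was in none of the 10 members' promoters on file and in 0.225% of all promoters.

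The levels of most stem cell markers overlapped between the ages. Of 21 bulge stem cell markers 2 were higher in every P20 library, Ptch1 and the Wnt inhibitor gene Wif1, none was lower, 18 had a difference above 0, and the median was 0.39. The share without overlap was below the 14% of all genes that were higher. Lgr5, an R-spondin receptor, was at 281, 252 and 386 CPM at P18 and 323, 218, 421 and 396 CPM at P20, a difference of 0.15 ± 0.30. Nfatc1, a transcription factor that keeps bulge cells quiescent, was at 540.3, 284 and 383 CPM at P18 and 605, 501, 554 and 925 CPM at P20, a difference of 0.68 ± 0.34. Fgf18 was at 6.91, 17.5 and 24.6 CPM at P18 and 3.77, 8.82, 32.2 and 82.9 CPM at P20, a difference of 0.96 ± 1.02, and was lowest in P20 WT 1 and highest in P20 WT 4. Bmp6, a BMP ligand, was at 37.2, 10.8 and 42.2 CPM at P18 and 19.2, 13.2, 9.69 and 6.08 CPM at P20, a difference of -1.32 ± 0.53, with overlap. The median of bulge stem cell markers was -0.21 with the later P20 date alone, 0.64 with the earlier one, 0.17 without P18 WT 2, 0.65 without P18 WT 3 and 0.16 without P20 WT 4. With the later P20 date alone Fgf18, Cd34 and Lgr5 were lower at P20.

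Irx5 differed by -0.57 ± 0.43 and its relative Irx3, at 75.4, 49.4 and 92 CPM at P18 and 108, 84.5, 116 and 129 CPM at P20, by 0.60 ± 0.27. Voom alone of the other tests called Irx3 higher. Among 20 quiescence factors 2 were higher in every P20 library (14% of all genes were), Ccng2 (0.97) and Klf4 (1.51), and Cirbp (-0.82) was lower. Among 20 BMP and TGF-beta targets 4 were higher and 1 was lower (14% and 5.45% of all genes were). Bambi, a decoy receptor for BMP and TGF-beta, was at 10.6, 13.3 and 13.5 CPM at P18 and 19.1, 20.3, 43.2 and 43.4 CPM at P20, and the BMP receptor gene Bmpr1a at 93.8, 81.2 and 88.3 CPM at P18 and 137, 130.2, 142 and 188 CPM at P20.

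Wnt, FGF and Notch lists held shares of separated genes near that of all genes (14% higher). Among 18 Wnt targets and regulators 3 were higher in every P20 library and none lower, with a median of 0.43. Wnt7b, a ligand made by follicle epithelium, was at 15.3, 14.7 and 17.9 CPM at P18 and 42.7, 50.8, 26 and 44 CPM at P20, a difference of 1.36 ± 0.27. Lgr6, a receptor of the upper bulge region, was at 125, 109 and 123 CPM at P18 and 269, 248, 135 and 198 CPM at P20. The median of the Wnt list was -0.04 with the later P20 date alone, 0.24 without P18 WT 2, 0.69 without P18 WT 3 and 0.27 without P20 WT 4. In the FGF and ERK response 4 of 17 were higher in every P20 library, among them Spred2, an inhibitor of the pathway, at 42.8, 29.2 and 36.7 CPM at P18 and 84.3, 75.8, 69.7 and 51.7 CPM at P20. In the Notch pathway 2 of 12 were higher, the coactivator gene Maml1 (1.23) and Rbpj (0.45).

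Some inflammatory genes were lower at P20. In NF-kB and cytokine genes 5 of 14 were lower in every P20 library (5.45% of all genes were) and none was higher, with a median of -0.33. That median was -0.63 without P18 WT 2, -0.64 without P20 WT 1 and -0.21 without P20 WT 4. Bcl3, a nuclear IkB protein, was at 52.1, 20.2 and 48.5 CPM at P18 and 15.3, 9.73, 10.7 and 11.2 CPM at P20, a log2 difference of -1.78 ± 0.35. Csf1, the growth factor of macrophages, was at 37.1, 19 and 14.4 CPM at P18 and 4.02, 7.05, 5.16 and 7.83 CPM at P20, a difference of -1.97 ± 0.42. The chemokine gene Ccl2 was at 23.5, 11.9 and 21.9 CPM at P18 and 3.85, 1.86, 10.2 and 6.75 CPM at P20, and the cytokine genes Il6 at 9.95, 4.8 and 23.4 CPM at P18 and 1.98, 0.735, 3.78 and 3.44 CPM at P20 and Lif at 14.6, 17.9 and 11.7 CPM at P18 and 6.46, 7.66, 1.27 and 2.16 CPM at P20. All 4 P20 libraries lay below all P18 libraries in these 5 genes. DESeq2 called 3 of the 14 lower, and voom and the block 4 each.

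In the interferon response 3 of 12 genes were lower in every P20 library (5.45% of all genes were) and none higher, with a median of -0.73. Tap1, a peptide transporter for antigen presentation, was at 74.4, 49.8 and 53.7 CPM at P18 and 23.5, 23.6, 37.5 and 38.8 CPM at P20, and the transcription factor gene Irf9 at 44, 35.6 and 45.6 CPM at P18 and 19.6, 21.1, 28.5 and 32.4 CPM at P20. The other one was Irf7 (-1.06). The class I gene H2-K1 was at 264, 126 and 210.2 CPM at P18 and 144, 61.9, 69.9 and 72.5 CPM at P20, where P20 WT 1 overlapped P18. T cell markers stand beside these values: 3 of 12 were tested, and their summed level over all 12 was 219.5 to 1259 CPM at P18 and 64.1 to 887.6 CPM at P20. Most of it was Thy1, and the 3 receptor-rich libraries held the highest sums, as they did for skeletal muscle and adipocyte markers. Cd3d was at 28.8, 37.4 and 29.2 CPM at P18 and 9.06, 20.8, 3.4 and 3.31 CPM at P20, lower in every P20 library. Of Langerhans cell and macrophage markers 8 of 16 were tested, with a summed level of 228.1 to 344.1 CPM at P18 and 287.8 to 536.6 CPM at P20, where Epcam, which follicle epithelium can also express, was the most abundant. None of the 8 separated the ages, and the median was 0.51. The Langerhans cell marker Cd207 was at 2.40, 3.17 and 3.19 CPM at P18 and 26.6, 21.4, 6.62 and 3.04 CPM at P20, and the antigen presentation genes Cd74 and H2-Ab1 were detected in all 7 libraries. The macrophage markers Lyz2 and C1qb were at 0 in 3 of the 7 libraries each. The part of immune cells in these results was not tested.

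Markers of neighbouring epithelium moved in different directions. Krt79, of the follicle infundibulum and duct, was at 341, 117 and 201 CPM at P18 and 54.2, 38.8, 69.2 and 6.35 CPM at P20, and its neighbour in the list Defb6 at 63.9, 15 and 35.7 CPM at P18 and 12.5, 3.89, 5.72 and 1.15 CPM at P20. Krt17, a keratin of the follicle and of stressed epidermis, was at 1608, 697 and 1192 CPM at P18 and 2775, 2401, 2521 and 2104 CPM at P20. The junction gene Jup differed by 1.05 and the desmosomal cadherin Dsg3 by 0.75, and both were higher in every P20 library. Tchh, of the inner root sheath, was at 166, 89.4 and 314 CPM at P18 and 41.4, 41, 94.8 and 64.1 CPM at P20, and P20 WT 3 overlapped P18. Granular and cornified epidermis markers summed to 158.4 to 523.9 CPM at P18 and 101.6 to 1430.0 CPM at P20, and P20 WT 4 was the lowest. Their part in the other results was not tested.

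Summed genes of DNA replication and of mitosis both split the P20 libraries. In G1/S and DNA replication the summed level was 1745, 1696 and 1360 CPM at P18 and 2150.0, 2192, 1022 and 978 CPM at P20, with P20 WT 1 and 2 above all P18 libraries and P20 WT 3 and 4 below them. Its median log2 difference was 0.55, and it was 0.81 with the later P20 date alone, -0.35 with the earlier one, 0.33 without P20 WT 1 and 0.28 without P20 WT 2. Still 8 of the 37 genes were higher in every P20 library (14% of all genes were) and none was lower. Pcna, the sliding clamp, was at 35.9, 21 and 37.1 CPM at P18 and 76.1, 63.5, 84.1 and 73.5 CPM at P20, a log2 difference of 1.24 ± 0.25, and the helicase subunit gene Mcm7 at 25.5, 24.4 and 28.3 CPM at P18 and 62, 92.7, 55.5 and 42.2 CPM at P20. Among G1 cyclins, kinases and inhibitors 3 of 17 were higher, near the 14% of all genes, and Ccnd1, cyclin D1, was at 32.2, 25 and 38.7 CPM at P18 and 49.7, 83, 51.6 and 91.2 CPM at P20, a difference of 1.11 ± 0.30. The inhibitor gene Cdkn1a was at 194, 84.6 and 95.7 CPM at P18 and 217, 117, 407 and 249.9 CPM at P20, with overlap.

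In G2/M and mitosis none of 34 genes separated the ages, although the median was 0.78. Mki67, the proliferation marker, was at 37, 34.1 and 19.5 CPM at P18 and 458, 249.5, 11.8 and 4.19 CPM at P20, a difference of 2.58 ± 1.49. The P20 libraries stood on both sides of P18: WT 1 and 2 above all 3 and WT 3 and 4 below. The median of this list was 1.64 with the later P20 date alone and -2.37 with the earlier one. Leaving out 1 library moved it to 0.010 without P20 WT 1, 0.48 without P20 WT 2, 0.44 without P18 WT 3 and 1.24 without P18 WT 2.

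The dates within P20 were therefore compared, WT 1 and 2 against WT 3 and 4, which also differ in Irx5. The libraries labelled Irx5KO had the reverse order of dates, with Mki67 at 19.2 and 14.95 CPM on the later P20 date and 1299 and 1477 CPM on the earlier one, in the scaling of 14 libraries. In both labels the P20 libraries high in Mki67 were those high in Irx5. The spread in this fit came from the replicates of each date. In edgeR 45 genes passed as higher (0.357%) and 23 as lower (0.183%) on the later date, with 3349 at an unadjusted p under 0.05 (26.6%). Of G2/M and mitosis 11 of 34 were higher on the later date and none lower, with a median log2 difference of 4.02. Mki67 differed by 5.45 ± 0.63 (adjusted p = 0.0374). Cenpf, a kinetochore protein, was at 97.5, 63.7, 1.27 and 1.62 CPM at P20, a difference of 5.81 ± 0.52 (edgeR adjusted p = 0.0247). The checkpoint kinase gene Bub1b differed by 5.54, Kntc1, of the same checkpoint, by 5.47, and the clustered histone gene Hist1h2af by 6.51. Hist1h2ap was also higher, but was at 0 in P20 WT 3 and 4, and reads of clustered histone genes are shared uncertainly. No gene was called between the dates without P20 WT 3 or without P20 WT 4, 1 gene was called in each direction without P18 WT 1, and 1788 genes were called higher without P20 WT 1.

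Brca1, which acts in repair by homologous recombination, was at 8.05, 17.2 and 2.66 CPM at P18 and 29.2, 22.4, 0.711 and 0.27 CPM at P20. Between the ages it differed by 0.50 ± 1.46, and between the P20 dates by 5.65 ± 0.71 (edgeR adjusted p = 0.043). Over 26 homologous recombination genes 2 were higher and 1 was lower in every P20 library, both below the shares of all genes (14% and 5.45%). The median age difference was -0.16. It turned to 0.17 without P18 WT 2, 0.26 with the later P18 date alone and 0.081 without the receptor-rich libraries, and was -0.86 with the earlier P20 date alone. The lower one was the nuclease gene Mus81, at 22.7, 12.6 and 18.4 CPM at P18 and 10.4, 8.09, 8.38 and 7.83 CPM at P20, and the higher ones Rpa1 (0.62) and Nbn (0.49). In the Fanconi anaemia pathway Usp1 (0.80) was higher and Fancc (-0.79) lower in every P20 library, of 14 tested, where 14% and 5.45% of all genes were. The median of -0.25 turned to 0.057 without P18 WT 2, 0.26 with the later P18 date alone and 0.059 without the receptor-rich libraries, and was -0.76 with the earlier P20 date alone.

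Genes lower on the later P20 date in the libraries labelled WT were of other kinds. Hes1, a Notch effector, was at 36.2, 19 and 20 CPM at P18 and 13.2, 16.1, 299.9 and 278 CPM at P20, and its date difference was -4.30 ± 0.39 (edgeR adjusted p = 0.0247). Dab2, an endocytic adaptor, was at 10.1, 10.9, 71 and 95.6 CPM at P20 and Dlk1, a Notch-related ligand, at 3.72, 5.32, 37.2 and 36.5 CPM. The others with the largest differences were Serpina3i (-5.63), Fxyd6 (-2.65) and Tmem184a (-2.42). Serpina3i belongs to a cluster of near-identical copies. Fgf18 differed by -3.20 and Cd34 by -1.56 between the dates, and neither passed (adjusted p = 0.101 and 0.0998). Most did not keep this direction in Irx5KO, in the scaling of 14 libraries. Dlk1 was at 29.65 and 14.58 CPM on the later P20 date there and 1.426 and 2.53 CPM on the earlier one. Fxyd6, Tmem184a and Fgf18 were also higher on that later date, and Dab2, Serpina3i and Cd34 overlapped. Hes1 stayed lower, at 31.1 and 24.1 CPM against 118 and 182.6 CPM.

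**Figure D5:**
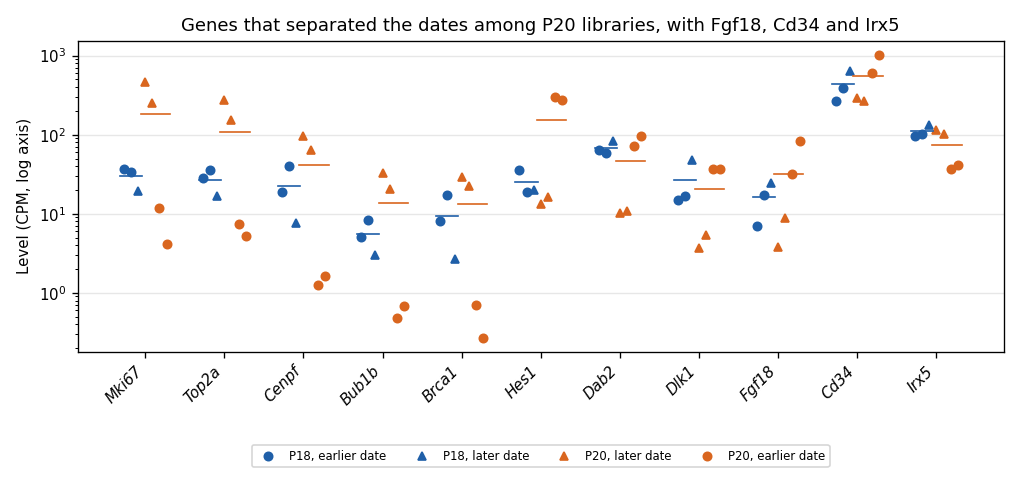
Level in CPM (log axis) of 11 genes in the 7 libraries labelled WT, with 1 point per library, shaped by date, and a line at each group's mean. In Mki67, Top2a, Cenpf, Bub1b and Brca1 the later P20 date lies above P18 and the earlier P20 date below it, and in Irx5 the earlier P20 date is low.

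Whether the age difference itself differed by labelled genotype was tested over all 14 libraries, grouped by their labels. The doubt about Irx5 in P20 WT 3 and 4 and P20 Irx5KO 3 and 4 touches every value by genotype here, and no fit with other labels was made. For age in WT minus age in Irx5KO no gene passed in edgeR (0%), with a smallest adjusted p of 0.985 and 304 genes at an unadjusted p under 0.05 (2.41%). DESeq2 called none either. The Irx5KO libraries share no sample with those labelled WT, but the dates of both are split by age in the same way. In the same fit 537 genes (4.27%) differed between the ages within Irx5KO. Mitochondrial genome genes took 1.64% ± 0.146 (SD, n = 3) of Irx5KO counts at P18 and 0.603% ± 0.142 (SD, n = 4) at P20, with an exact permutation p of 0.0571. Of the 12 tested, 9 passed as lower at P20 in each genotype, with medians of -1.74 in WT and -1.46 in Irx5KO. Of all 12590 genes, that fit called 34 lower at P20 in WT, and 537 (4.27%) in either direction in Irx5KO. In that fit Creb5 differed by -2.59 in WT and -2.79 in Irx5KO, and Ctrc by -2.58 and -2.88. The median of heat shock and protein folding was 1.24 in WT and 0.46 in Irx5KO, and the test of the difference called no gene.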

How the data were processed

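Single-end reads of total RNA were quantified by transcript with kallisto 0.46.2, per the labels' protocols. Build mm10 and DESeq2 (no version) appear in the submitters' processing notes. The annotation that kallisto used is not given in the sources used here. Each library has a table, deposited by the authors, with an estimated count and a TPM value for each of 118489 transcripts, per the file headers. The estimated counts of the 116816 transcripts that matched GENCODE were summed to genes and rounded. The TPM values were not used. The 1673 unmatched transcripts held 1.38% to 2.10% of the counts of libraries labelled WT and were left out. No strand setting is stated, so a gene and an overlapping antisense partner cannot be told apart.

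Genes with at least 5 CPM in at least 3 of the 7 libraries were kept, without Olfr and Vmn receptor genes, and scaled by TMM. Ages were compared with edgeR 4.0.16 in R 4.3.3, with robust quasi-likelihood tests. P-values were adjusted by Benjamini-Hochberg over the 12590 genes kept. The SE is the log2 difference over the square root of F and is approximate near 0. Dates within P20 were compared in a fit with 1 coefficient per date, and the difference between genotypes over 14 libraries. The alternatives used limma 3.58.1, DESeq2 1.42.0, other scalings and filters, a replicate block, date terms and fewer libraries. The fit was tested on simulated data with 50 genes changed at each of 4 log2 differences (-3, -2, 2 and 3). Between 40 and 49 of each 50 passed, and 20 unchanged genes passed too. The simulated spread was estimated within dates, so it lacks the spread between dates of an age. It therefore does not show how many genes the real fit can find. Replicates of a group differed from each other by more than counting noise.

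The text names 10 genes in every case, the 8 smallest p in each direction (not overlapping, mean log2 CPM of at least 3), up to 5 members with the smallest p per list, and the 6 largest differences in each direction between the dates. Pseudogenes and gene models with provisional names count in totals only, and some genes that the rule names are not reported here. The remaining mitochondrial genes, Hspa5, Calr, Hspe1, Slc7a11, Krt15, Ly6a, Ddx3y, Lyz2, C1qb, Cd207, Cd74 and H2-Ab1 were chosen after their values were seen. The members, the 52 gene lists (921 symbols, of which 4 matched no gene) and the tests were chosen with earlier results of these data known. Promoter sequences are RefSeq's.

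Whether replicate numbers pair the libraries was checked on deviations from the group means. Libraries of the same number correlated at 0.262, 0.778 and 0.555 across genes, and the numbers were taken as pairs. This pairing comes from the data alone, and P20 WT 4 correlated at 0.581 with P18 WT 3.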

Additional observations from a re-analysis of the deposited data

Results flagged for a closer look

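The 4 libraries labelled P20 WT were searched for a value that stood apart from the other 3 by more than Dixon's critical share of the group's range. This was done for 114 genes, 52 list sums and 2 shares, and 11 values stood apart, where chance flags about 1 in 20 groups. Of these, 8 were in P20 WT 2, the library of that age with the most receptor gene counts, and list sums share that library's counts.

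In P20 WT 2 the receptor genes took 2.41% of the counts, and mt-Cytb stood at 867 CPM. The summed markers of endothelial cells stood at 75.2 CPM, of T cells at 887.6 CPM, of mast cells at 27.0 CPM, of skeletal muscle at 55.0 CPM, of erythroid cells at 14.7 CPM and of adipocytes at 136 CPM, each above the other 3 libraries.

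In P20 WT 1 the stress gene Sesn2 stood at 80.7 CPM, the class I gene H2-K1 at 144 CPM and the summed spliceosome genes at 3086 CPM, each above the other 3.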

How the results depend on the processing

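No gene passed between the ages in edgeR, and none did under RLE scaling, with receptor genes kept, with a filter of 1 CPM, with length offsets, with date as a random effect, with the later date alone of either age, or without the 3 receptor-rich libraries. Genes called higher and lower at P20 numbered 413 and 230 in DESeq2, 1655 and 571 in voom with quality weights, 40 and 34 with the spread of 14 libraries, 6 and 10 with no filter, 2 and 1 for the mean of the dates, and 9 and 23 with the earlier P20 date alone. With the replicate block they numbered 575 and 562, and Fgf18 (-0.49) and Cd34 (-0.18) were lower at P20. Leaving out 1 library gave 0 higher and between 0 and 2 lower, the 2 without P20 WT 2. The later P18 date alone and the set without receptor-rich libraries hold P18 WT 3 as the only P18 library, which is assumed to vary like P20. Of 330 values of the 15 leading genes under 22 alternatives, 60 were past the threshold. Their signs were fixed in part by choosing genes without overlap. No filter moved the median of all genes to 0.281. Of 35 list medians 15 changed sign under at least 1 alternative, in 34 of 770 values.

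Genes without overlap, higher and lower, numbered 1002 and 488 with no filter, 2028 and 2232 with the later P20 date alone, 3441 and 3621 with the earlier P20 date alone, 2238 and 1955 with the later P18 date alone, and 3317 and 3673 without the receptor-rich libraries. Leaving out 1 library gave 1339 to 2914 higher and 831 to 2394 lower. Smaller groups fail to overlap more often without any difference, most of all where 1 library stands for an age. Counts from fewer libraries are therefore not comparable with the 1761 and 686 of the full comparison.

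Some log2 differences changed sign, none of them past the threshold. Brca1 was at -2.0 in voom, -0.10 with length offsets, -0.67 for the mean of the dates and -4.29 with the earlier P20 date alone, and ranged from -0.28 (without P20 WT 1) to 1.29 with 1 library left out. Mki67 was at -0.42 in voom and -1.99 with the earlier P20 date alone. With the later P20 date alone Fgf18 was at -1.46, Cd34 at -0.74 and Lgr5 at -0.27. Cd34 and Lgr5 were at -0.35 and -0.28 with the later P18 date alone and at -0.11 and -0.10 without the receptor-rich libraries. Fgf18 was at -0.31 with date as a random effect. With 1 library left out Fgf18 ranged from -0.13 to 1.38 and Cd34 from -0.16 to 0.74, both lowest without P20 WT 4, and Lgr5 from -0.035 (without P18 WT 2) to 0.35.

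Between the P20 dates, calls higher and lower on the later date were 46 and 15 under RLE, 23 and 10 with receptor genes kept, 1910 and 331 with no filter, 105 and 44 at 1 CPM and 1743 and 660 in DESeq2. Leaving out 1 library gave 0 to 1788 higher and 0 to 167 lower. The difference between genotypes called no gene under any alternative run. The cause of these changes was not tested. Depth limits the low-level genes, and fits with fewer libraries have fewer degrees of freedom.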
